A study of Caenorhabditis elegans with 6 samples.

Results

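Histone acetylation was followed at 10 Caenorhabditis elegans genes whose products write, erase or read chromatin marks, or recruit the transcription machinery: cbp-1, hda-1, met-2, lin-65, set-25, jmjd-1.2, jmjd-3.1, utx-1, set-2 and taf-4. The genes were taken by name, and every peak that the authors' tables assign to them was used. These are 9 of 17207 nuclear peaks of acetylated histone H3 lysine 18 (H3K18ac), at 5 of the genes, and 12 of 17763 nuclear peaks of acetylated lysine 27 (H3K27ac), at 7 of the genes. Of the 10 genes 7 have an assigned peak of either mark, out of 14384 genes that do.

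CBP-1 is the worm homologue of the mammalian acetyltransferases CBP and p300, which acetylate both of these lysines at active promoters and enhancers. HDA-1 is a class I deacetylase that removes such marks. MET-2 and SET-25 methylate histone H3 at lysine 9, a modification of silent chromatin, and LIN-65 is a partner of MET-2. JMJD-1.2, JMJD-3.1 and UTX-1 are demethylases of the JmjC family, SET-2 is a methyltransferase for lysine 4, and TAF-4 is a subunit of the general transcription factor TFIID. Several of these proteins are known in worms for a part in the mitochondrial unfolded protein response or in the long life of animals whose respiratory chain is impaired. The measurements here concern the acetylation of the genes themselves, not the activity of their products.

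The worms were of strain N2 with a wild-type genotype according to the sample labels, and the series design adds an hsp-6::GFP reporter, a fluorescent readout of the mitochondrial stress response, in all of them. From the egg to the L4 or young adult stage at 20 °C, they were fed E. coli HT115 with the empty RNAi vector, or with cco-1 RNAi bacteria making up 50% of the food, which lowers a subunit of cytochrome c oxidase. Chromatin of whole worms was fixed with 1% formaldehyde for 30 min and precipitated with an antibody against H3K18ac or H3K27ac. This gave 4 libraries, 1 per mark and feeding condition, and 2 input libraries not analysed here. Without replicates no difference below was tested, and the 95% intervals, exact binomial intervals from both counts, show counting error alone. In whole worms, acetylation in fewer cells and less acetylation per cell cannot be told apart.

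The depth, as counts in nuclear peaks, was 8293828 (empty vector) and 8948860 (cco-1 RNAi) in H3K18ac, and 11556404 and 11593321 in H3K27ac. Values are counts per 1000000 of these counts (CPM). A fold is cco-1 RNAi over empty vector, and a peak is said to have risen or fallen when it passed 1.5-fold. Over all peaks the median log2 ratio was -0.026 for H3K18ac and -0.19 for H3K27ac, so that the median H3K27ac peak had a fold of 0.875. In H3K27ac this median followed peak strength. It ran from -0.65 in the weakest of 10 equal groups of peaks by mean CPM to 0.12 in the strongest. A strong H3K27ac peak that is higher relative to the median of all peaks need not be higher than peaks of like strength. At the RNAi target cco-1 the fold was 8.32 (8.01 to 8.63) in H3K18ac and 3.15 (3.08 to 3.22) in H3K27ac, which are counts of precipitated DNA and do not measure the transcript. Without the inputs, more acetylation and more DNA of this sequence in the sample cannot be told apart.

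Peaks lay at different places along the genes. At set-25, utx-1 and taf-4 an assigned peak covered the gene start in each mark that was read there, while the peaks of cbp-1 and lin-65 all lay inside the gene. No peak of either table was assigned to hda-1, met-2 or jmjd-1.2. The lines of the H3K18ac table end on chromosome X at 7889771, before utx-1 and jmjd-3.1, so H3K18ac at these 2 genes was not analysed here. By comparison, 37.1% of 18456 protein-coding genes in the range of the H3K18ac table had an assigned peak, and 38.2% of 19278 in that of the H3K27ac table. The tables assign a peak to the nearest start, and 7 H3K18ac and 9 H3K27ac peaks over the bodies of these genes carry the name of a neighbour or of a small RNA gene inside the gene. These peaks are described with the gene they lie on, under the name the authors gave them.

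**Figure D1:**
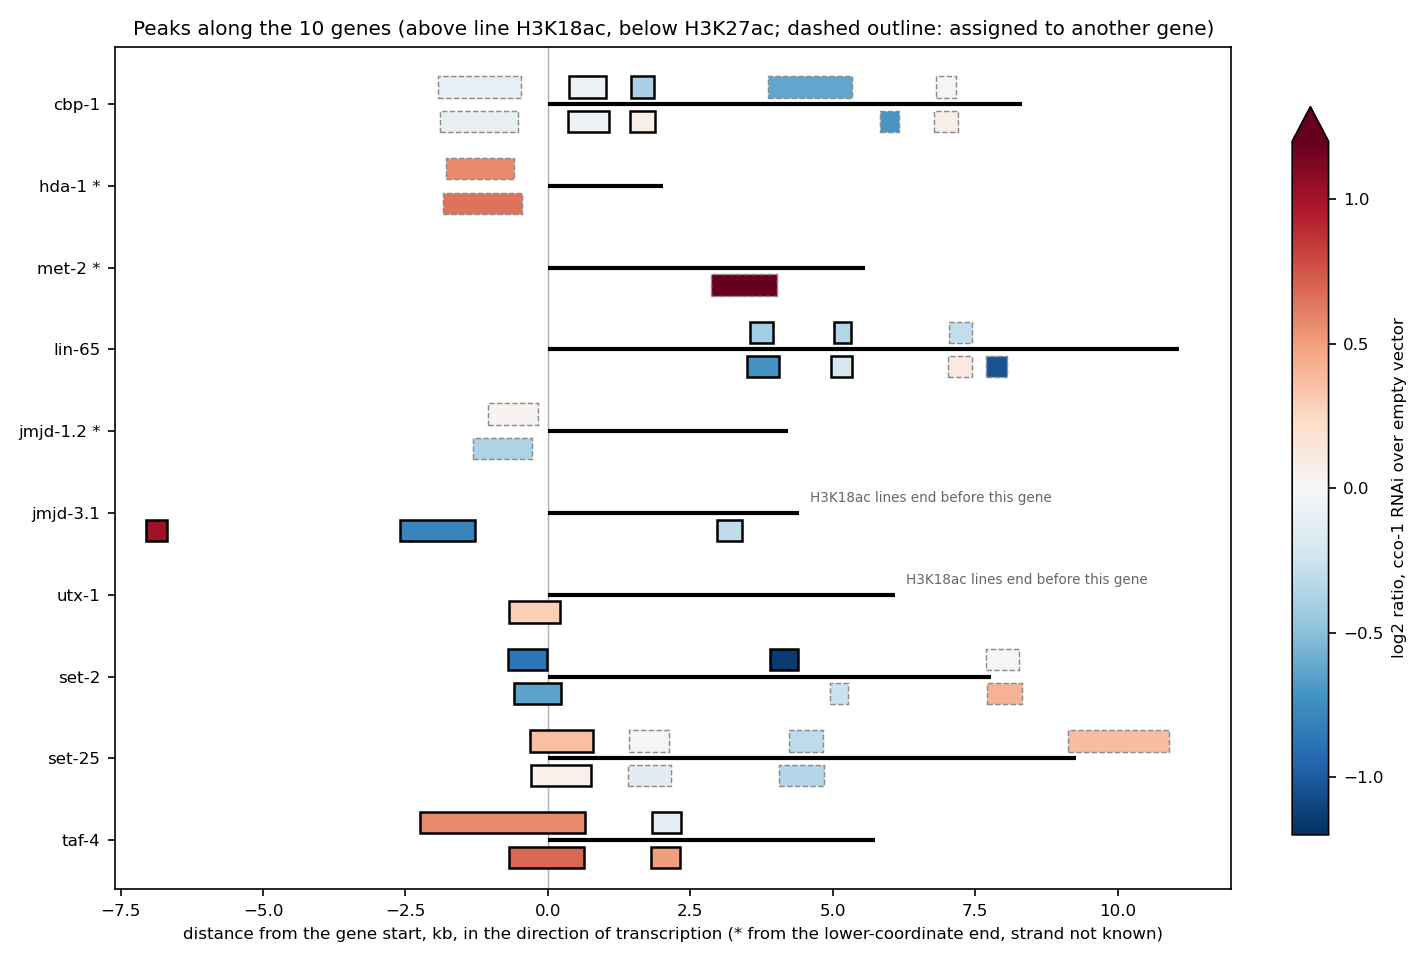
Peaks along the 10 genes, as distance from the gene start in kb (x axis), with H3K18ac above and H3K27ac below each gene line; colour gives the log2 of the fold, solid outlines mark peaks assigned to the gene and dashed outlines peaks assigned to another. The red blocks over the start of taf-4 and beside hda-1 appear in both marks, and the blue blocks at the start of set-2 likewise.

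At cbp-1 (WBGene00000366, chromosome III, 9766516 to 9774807, plus strand, build ce11) acetylation was strong just inside the gene and moved little. The first assigned peak lay 369 to 1026 bp from the start in H3K18ac (9766885 to 9767542) and held 966 counts with empty vector and 1002 with cco-1 RNAi, which is 116 and 112 CPM. In H3K27ac the matching peak (9766864 to 9767581) held 1285 and 1236 counts, 111 and 107 CPM. The folds were 0.961 (0.879 to 1.05) and 0.959 (0.886 to 1.04), with intervals that include 1. With the median of all peaks of each mark set to no change, the H3K27ac fold was 1.096 (1.01 to 1.19), above 1, and the H3K18ac fold was 0.979 (0.895 to 1.07). After centring on the median of peaks of like strength the H3K27ac fold was 0.941, so the direction of H3K27ac at this peak rests on the scaling.

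The marks parted at the second cbp-1 peak, further inside the gene. H3K18ac there (9767983 to 9768380) had 746 counts with empty vector and 613 with cco-1 RNAi, 89.9 to 68.5 CPM, a fold of 0.762 (0.683 to 0.849). H3K27ac (9767953 to 9768396) went from 857 counts to 915, 74.2 to 78.9 CPM, a fold of 1.06 (0.969 to 1.17). The intervals do not overlap under either scaling, although neither value passed 1.5-fold. Per kb of peak, this second peak stood at percentile 97.6 of all H3K18ac peaks and 94.1 of all H3K27ac peaks with empty vector, so these are well-filled peaks.

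Weaker peaks further along cbp-1 were assigned to R10E11.13, a non-coding RNA gene that lies inside cbp-1. A broad H3K18ac peak 3866 to 5333 bp from the start (9770382 to 9771849) fell from 295 to 207 counts, a fold of 0.6503 (0.542 to 0.779). An H3K27ac peak 5826 to 6169 bp from the start (9772342 to 9772685) fell from 161 to 99 counts, a fold of 0.613 (0.472 to 0.792) that is within 1.5-fold relative to the median of all H3K27ac peaks (0.7005), and had no H3K18ac peak over it. Near the 3' end, 6812 to 7167 bp from the start in H3K18ac, both marks had a peak that stayed level, with folds of 1.01 (0.800 to 1.28) and 1.06 (0.878 to 1.28). Upstream of cbp-1, the strongest peak of the region, assigned to the non-coding RNA gene R10E11.10, ended 464 bp before the start in H3K18ac and held 2731 and 2727 counts, a fold of 0.925 (0.877 to 0.976). In H3K27ac it held 4854 and 4582 counts, a fold of 0.941 (0.904 to 0.980). Summed over the 5 peaks of each mark on or just upstream of the gene, cbp-1 had a fold of 0.893 (0.858 to 0.930) in H3K18ac and 0.955 (0.924 to 0.987) in H3K27ac. The peak assigned to R10E11.10 gave most of these sums, 2731 of 4879 H3K18ac and 4854 of 7379 H3K27ac counts with empty vector. Relative to the median of all H3K27ac peaks, the H3K27ac sum turned to 1.09 (1.06 to 1.13) and the upstream peak to 1.08 (1.03 to 1.12).

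The deacetylase gene hda-1 (chromosome V, 14525389 to 14527411 in RefSeq on the same build) had no peak over its body. A strong peak assigned to ril-1, the neighbouring gene on the lower-coordinate side, ended 602 bp from hda-1 in H3K18ac (14523603 to 14524787) and 457 bp from it in H3K27ac (14523548 to 14524932). It had 1502 counts with empty vector and 2424 with cco-1 RNAi in H3K18ac, 181 to 271 CPM, a fold of 1.496 (1.402 to 1.596) that lies just under the 1.5-fold line. In H3K27ac it rose from 5175 to 8153 counts, 448 to 703 CPM, a fold of 1.57 (1.52 to 1.63). The intervals of the marks overlap, but come apart with the median of each mark set to no change, at 1.52 (1.43 to 1.63) and 1.79 (1.73 to 1.86). The log2 ratios of this peak were 0.58 in H3K18ac and 0.65 in H3K27ac. Peaks of like strength had medians of 0.14 and 0.12, so against those its rise was smaller. The strand of hda-1 is not in the tables used here, so whether this end is its start was not read, and the peak covers the start of ril-1.

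Among the genes of lysine 9 methylation, the marks at lin-65 (WBGene00022149, chromosome I, 1755329 to 1766467, plus strand) were of middling level. The assigned peaks stood at percentiles 45.4 to 53.4 by level per kb, and in CPM their folds were below 1. The peak 3546 to 3949 bp from the start in H3K18ac (1758875 to 1759278) went from 217 counts to 175, a fold of 0.747 (0.609 to 0.916). H3K27ac at the same place (1758817 to 1759389) fell from 355 to 216 counts, 30.7 to 18.6 CPM, a fold of 0.607 (0.510 to 0.720). This fall is within 1.5-fold once the median of all H3K27ac peaks is set to no change (fold 0.693). The next peak inside the gene had folds of 0.784 (0.610 to 1.01) in H3K18ac (143 and 121 counts) and 0.871 (0.717 to 1.06) in H3K27ac (230 and 201 counts), both with intervals that include 1. Its H3K27ac fold was 0.996 relative to the median of all H3K27ac peaks, and 1.08 after centring on the median of peaks of like strength.

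Later in lin-65, peaks were assigned to ddx-27, the next gene. At 7047 to 7442 bp from the start H3K18ac had 300 and 263 counts, a fold of 0.812 (0.686 to 0.962), against 1.09 (0.926 to 1.27) for H3K27ac (302 and 329 counts). These intervals overlap, but come apart relative to the medians of all peaks. An H3K27ac peak just beyond (1763013 to 1763393), with no H3K18ac peak over it, fell from 190 to 93 counts, a fold of 0.488 (0.377 to 0.629). Relative to the median of all H3K27ac peaks its fold was 0.558 (0.430 to 0.718). The log2 ratio was -1.04, where the median of peaks of like strength was -0.47. Over the whole of lin-65 the folds of the summed counts were 0.785 (0.7001 to 0.880) over 3 H3K18ac peaks and 0.777 (0.709 to 0.851) over 4 H3K27ac peaks. Relative to the median of all H3K27ac peaks the H3K27ac sum was 0.887 (0.810 to 0.972).

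The methyltransferase gene set-25 (WBGene00012802, chromosome III, 13283892 to 13293085, minus strand) had its assigned peak over the start. H3K18ac (13292287 to 13293395) had 782 counts with empty vector and 1081 with cco-1 RNAi, 94.3 to 121 CPM, a fold of 1.28 (1.17 to 1.41). H3K27ac (13292326 to 13293376) went from 2267 counts to 2370, 196 to 204 CPM, a fold of 1.04 (0.983 to 1.104). These intervals do not overlap, and only that of H3K27ac includes 1. Relative to the medians of all peaks neither statement holds: the folds were 1.304 (1.19 to 1.43) and 1.19 (1.12 to 1.26), both above 1, with intervals that overlap. After centring on the median of peaks of like strength the folds were 1.26 in H3K18ac and 0.960 in H3K27ac.

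Inside set-25, the peaks on either side of the piRNA gene 21ur-12617 carry its name. The one nearer to the set-25 start had 234 and 249 counts in H3K18ac, a fold of 0.986 (0.822 to 1.18), and 527 and 482 in H3K27ac, a fold of 0.912 (0.804 to 1.03). The one in the middle of the gene had folds of 0.804 (0.701 to 0.921) and 0.786 (0.701 to 0.880), from 459 to 398 counts in H3K18ac and from 695 to 548 in H3K27ac. Of these 3 places with a peak of both marks, the start had the highest fold and the middle of the gene the lowest, in each mark. A broad H3K18ac peak across the 3' end, assigned to F56A8.8, had a fold of 1.29 (1.12 to 1.49, 335 and 467 counts). Its midpoint lay beyond the gene, and no H3K27ac peak overlapped the gene there.

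At met-2 (chromosome III, 8375300 to 8380863 in RefSeq) H3K18ac had no peak over the gene or within 1 kb of either end. H3K27ac had a single peak over the body (8378169 to 8379323), assigned to the neighbour R05D3.12, which rose from 103 to 430 counts, 8.91 to 37.1 CPM. The fold was 4.16 (3.35 to 5.21), at percentile 99.9 of all H3K27ac peaks. With empty vector this region was nearly bare: per kb of peak its level stood at percentile 0.18 of all H3K27ac peaks, and only with cco-1 RNAi did it come above the median CPM of 29.5. It was the largest fold on or near any of the 10 genes, and it starts from that low level. Whether the region was called as a peak through the cco-1 RNAi library alone, which would favour a high fold, is not known here.

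Of the demethylase genes, utx-1 (WBGene00017046, chromosome X, 8557151 to 8563238, plus strand), which acts on lysine 27 methylation, carried a strong H3K27ac peak over its start (8556474 to 8557361). It had 1450 counts with empty vector and 1788 with cco-1 RNAi, 125 to 154 CPM, a fold of 1.23 (1.15 to 1.32) that stays within 1.5-fold. The peak stood at percentile 90.8 of H3K27ac peaks by level per kb, and its log2 ratio was 0.49 above the median of all peaks. After centring on the median of peaks of like strength its fold was 1.13.

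The related demethylase gene jmjd-3.1 (WBGene00017571, chromosome X, 8571049 to 8575442, plus strand) lies just beyond utx-1 and went the other way at its assigned peak with the highest CPM. That peak, 2602 to 1280 bp upstream (8568447 to 8569769), fell from 647 to 372 counts, 56.0 to 32.1 CPM, a fold of 0.573 (0.503 to 0.652). The fall held relative to the median of all H3K27ac peaks, at a log2 ratio of -0.61. A peak inside the gene (8574013 to 8574449) had 223 and 181 counts, a fold of 0.809 (0.661 to 0.989). Its fold was 0.925 (0.756 to 1.13) relative to the median of all H3K27ac peaks, and 1.01 after centring on the median of peaks of like strength. By level per kb with empty vector it stood at percentile 35.0, and the wider upstream peak at 32.7. The third, far upstream between utx-1 and jmjd-3.1 (8563994 to 8564359), rose from 56 to 114 counts, a fold of 2.03 (1.46 to 2.85), but had few counts and stood at percentile 1.69 by level per kb. Its fold was 1.42, within 1.5-fold, with a pseudocount of 7.01 CPM, and 3.18 after centring on the median of peaks of like strength.

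At jmjd-1.2 (chromosome IV, 4660991 to 4665212 in RefSeq), whose product removes methyl groups from lysines 9 and 27, no peak covered the body. The nearest lay on the lower-coordinate side over the start of F29B9.11, ending 177 bp from jmjd-1.2 in H3K18ac (4659943 to 4660814) and 284 bp from it in H3K27ac (4659669 to 4660707). H3K18ac had 354 and 390 counts, a fold of 1.02 (0.882 to 1.18), and H3K27ac 1862 and 1448, a fold of 0.775 (0.723 to 0.831). The intervals of the marks do not overlap, but relative to the medians of all peaks they do, with folds of 1.04 (0.898 to 1.204) and 0.886 (0.827 to 0.949).

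The lysine 4 methyltransferase gene set-2 (WBGene00004782, chromosome III, 4922446 to 4930204, minus strand) had the deepest H3K18ac falls of the 10 genes. The peak just upstream of the start (4930225 to 4930895) fell from 187 to 110 counts, 22.5 to 12.3 CPM, a fold of 0.545 (0.427 to 0.694). The peak in the middle of the gene (4925810 to 4926300), which no H3K27ac peak overlapped, fell from 173 to 84 counts, 20.9 to 9.39 CPM, a fold of 0.450 (0.343 to 0.587), at percentile 1.53 of all H3K18ac peaks. Both are weak peaks, at percentiles 26.5 and 36.2 by level per kb, and both falls stayed past 1.5-fold under the 5 other scalings and pseudocounts tried.

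H3K27ac over the set-2 start (4929982 to 4930803) fell from 502 to 322 counts, 43.4 to 27.8 CPM, a fold of 0.639 (0.554 to 0.737). The fold was 0.731 with the median of all H3K27ac peaks set to no change, within 1.5-fold. A weak H3K27ac peak inside the gene, assigned to mmab-1, had 113 and 94 counts, a fold of 0.829 (0.624 to 1.0999). At the 3' end, where the peaks are again assigned to mmab-1, H3K18ac had a fold of 1.00 (0.863 to 1.16, 347 and 375 counts) and H3K27ac of 1.34 (1.19 to 1.502, 517 and 694 counts). These 3' peaks (4921942 to 4922512 and 4921873 to 4922500) have midpoints beyond set-2 and lie upstream of mmab-1, so they say little of set-2 itself. The falls past 1.5-fold were at the set-2 start in both marks and, in H3K18ac, in its interior.

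The TFIID subunit gene taf-4 (WBGene00006385, chromosome I, 382833 to 388847, plus strand) had the assigned peak with the highest CPM in each mark, and the largest gain in CPM. Summed over the peaks on or near the gene, H3K18ac with empty vector was higher at cbp-1 (588 CPM) than at taf-4 (547 CPM). Of the cbp-1 sum, 329 CPM came from the upstream peak assigned to R10E11.10. The wide H3K18ac peak over its start (380589 to 383488) went from 3409 counts to 5487, 411 to 613 CPM, a fold of 1.49 (1.43 to 1.56), just under the 1.5-fold line; it passed the line under 3 of the 5 other settings, with 1.52 at median scaling. H3K27ac over the start (382144 to 383476) rose from 6658 to 10776 counts, 576 to 930 CPM, a fold of 1.61 (1.56 to 1.66). By level per kb this peak stood at percentile 99.7 of all H3K27ac peaks. After centring on the median of peaks of like strength the folds over the start were 1.36 in H3K18ac and 1.49 in H3K27ac, both within 1.5-fold. The wide H3K18ac peak also covers an H3K27ac peak assigned to pqn-59, with a fold of 1.34 (1.26 to 1.43), and the 2 H3K27ac peaks together had 1.56 (1.52 to 1.60).

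Inside taf-4 the marks differed again. The H3K18ac peak (384653 to 385164) had 1127 and 1118 counts, 136 and 125 CPM, a fold of 0.919 (0.846 to 1.00). H3K27ac over the same bases (384648 to 385161) had 1224 counts with empty vector and 1739 with cco-1 RNAi, 106 to 150 CPM, a fold of 1.42 (1.32 to 1.52). This was the widest gap between the marks among the 16 places on or near the 10 genes where both had a peak, 0.62 on the log2 scale, and it lay in peaks at percentiles 99.0 and 96.5 by level per kb.

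**Figure D2:**
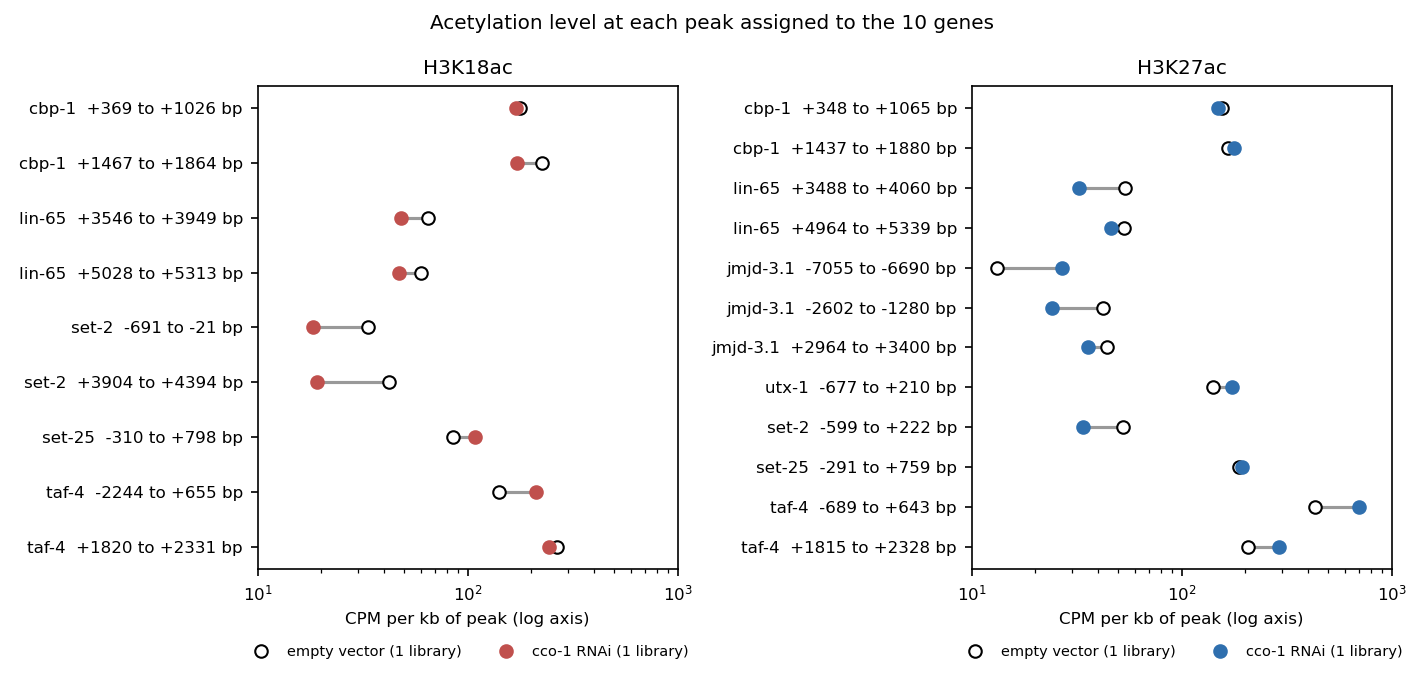
Level of each assigned peak in CPM per kb of peak (log axis), with open circles for empty vector and filled circles for cco-1 RNAi, 1 library each. Labels give the peak's position from the gene start; the H3K27ac peak over the taf-4 start is the highest at 432 and 697, and the far upstream jmjd-3.1 peak the lowest with empty vector at 13.2.

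Side by side, the 10 genes did not move as a group. Of the 9 assigned H3K18ac peaks 0 rose and 2 fell, both at set-2, where 9.16% of all H3K18ac peaks rose and 13.2% fell. Their median log2 ratio was -0.35, from -1.15 to 0.58, below the median of all peaks. Of the 12 assigned H3K27ac peaks 2 rose, at taf-4 and far upstream of jmjd-3.1, and 3 fell, at lin-65, jmjd-3.1 and set-2, where 8.73% of all H3K27ac peaks rose and 23.1% fell. Their median was -0.00059. With so few peaks, these counts are not read as apart from the background.

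**Figure D3:**
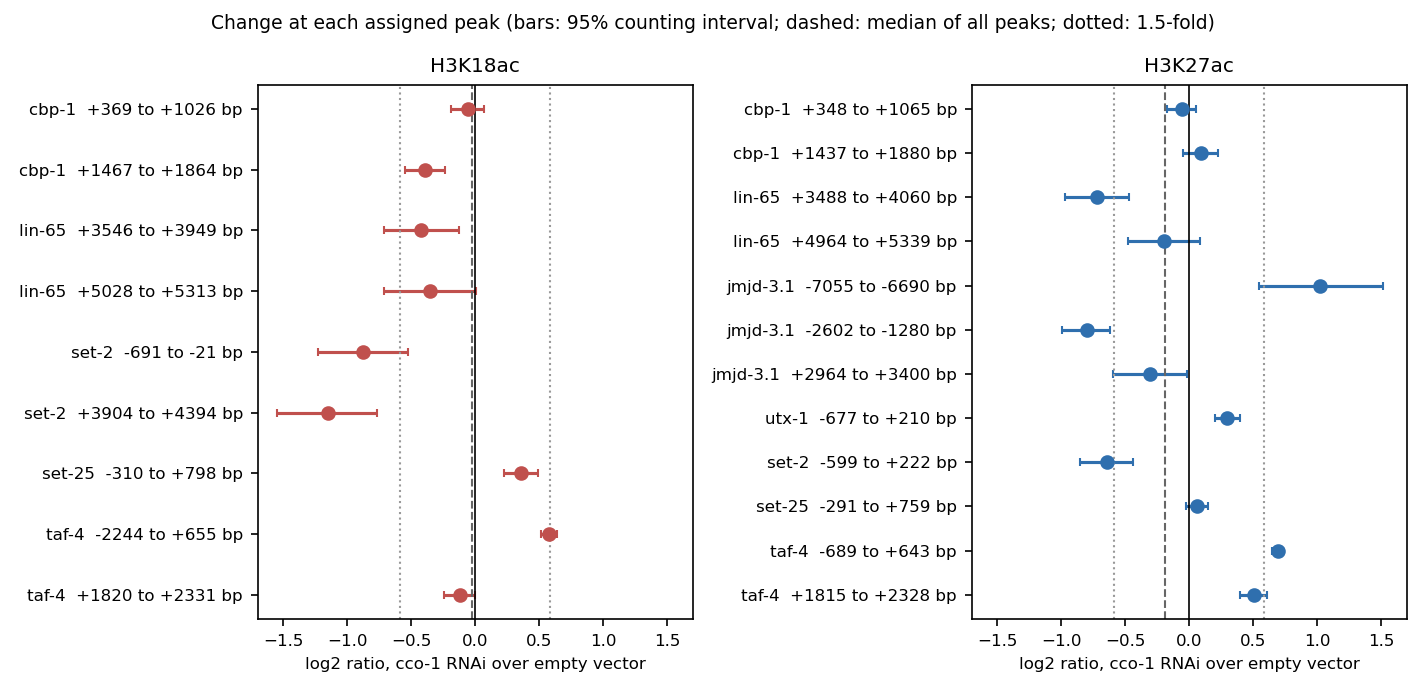
Log2 of the fold (cco-1 RNAi against empty vector) at each assigned peak, with 95% counting intervals; the dashed line is the median of all peaks of the mark and the dotted lines are 1.5-fold. The set-2 peaks lie left of the lower dotted line in H3K18ac, and the H3K27ac peak over the taf-4 start lies right of the upper one.

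With the median of all H3K27ac peaks set to no change, 3 assigned peaks rose (14.8% of all peaks did) and 1 fell (14.4%). The added rise was the peak inside taf-4, at a fold of 1.62, and the remaining fall was the upstream peak of jmjd-3.1. The peak inside taf-4 had a fold of 1.30 after centring on the median of peaks of like strength. By position, the 2 assigned H3K18ac peaks over a gene start, at set-25 and taf-4, had log2 ratios of 0.36 and 0.58, and the 7 other assigned peaks were below 0. Of these 7, the first cbp-1 peak (-0.057) and the second lin-65 peak (-0.35) had intervals that include 0. Of the 10 H3K18ac peaks on or near these genes under another name 5 were above 0. Those beside hda-1 (0.58) and jmjd-1.2 (0.030) cover the starts of ril-1 and F29B9.11. The peaks beside jmjd-1.2 and near the 3' ends of cbp-1 (0.018) and set-2 (0.0023) had intervals that include 0. So did, below 0, the 21ur-12617 peak nearer to the set-25 start (-0.020). The peak across the 3' end of set-25, with its midpoint beyond the gene, was at 0.37. Of those below 0, the one upstream of cbp-1 covers the gene R10E11.10 (-0.11). So few peaks do not show whether the sign follows the place. In H3K27ac the 4 assigned peaks over a start ranged from -0.65 at set-2 to 0.69 at taf-4. This describes these genes and was not tested.

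At 16 places on or near 7 of the genes both marks had overlapping peaks, whose midpoints lay from 0.5 to 771.5 bp apart. The log2 ratios were on the same side of 0 at 12 of them. The counting intervals of the folds overlapped at 10 and were apart at 6, which are the second cbp-1 peak, the peak beside jmjd-1.2, the 3' end of set-2, the set-25 start and both taf-4 peaks. H3K27ac had the higher ratio at 4 of those 6, and H3K18ac at the set-25 start and beside jmjd-1.2. At the taf-4 start the peaks differ in width, 2900 bp in H3K18ac and 1333 bp in H3K27ac. The H3K27ac peaks under the wide H3K18ac peak together had a fold of 1.56 (1.52 to 1.60). At this scaling that interval overlaps the H3K18ac one of 1.43 to 1.56. The summed peaks were not compared with the median of each mark set to no change. Whether the gap there rests on the regions compared was therefore not tested. The 2 marks come from tables scaled separately, and the tally rests on that scaling. With the median of each mark set to no change, 10 places were on the same side and 7 had intervals apart, of which 4 were among the former 6. The set-25 start and the peak beside jmjd-1.2 then overlapped, while the peak upstream of cbp-1, the peak beside hda-1 and the first lin-65 peak assigned to ddx-27 came apart.

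**Figure D4:**
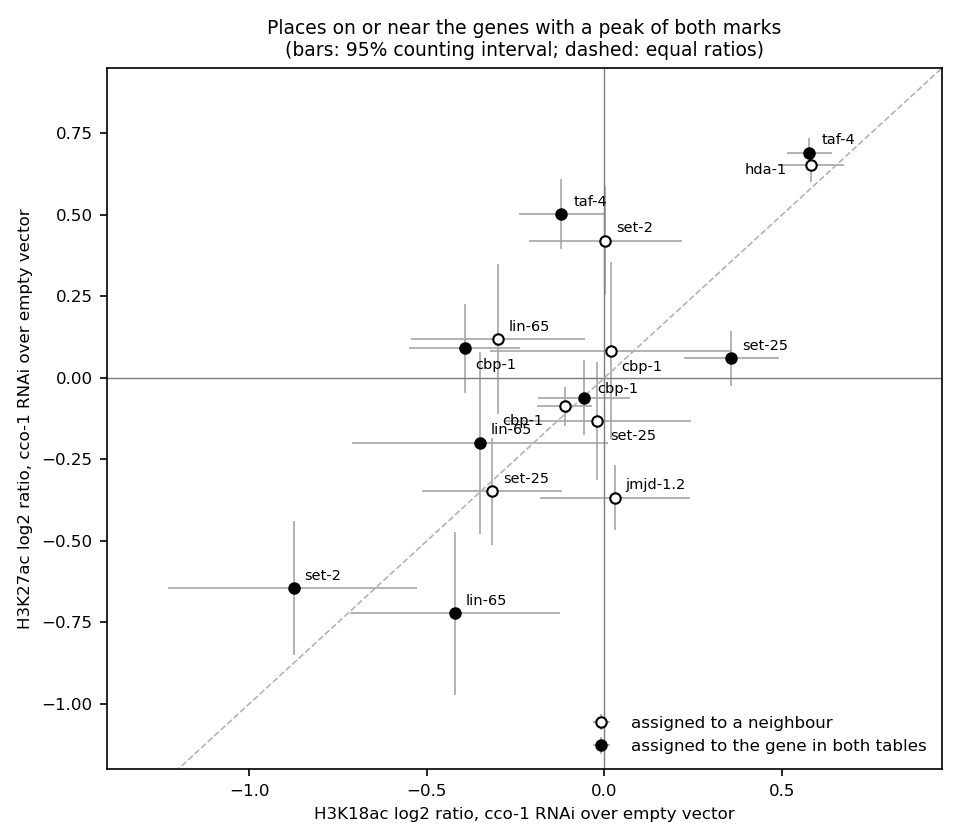
Log2 ratio of H3K27ac (y axis) against that of H3K18ac (x axis) at the 16 places with a peak of both marks, with 95% counting intervals; filled points are assigned to the gene in both tables, open points to a neighbour, and the dashed line marks equal ratios. The taf-4 start and the peak beside hda-1 sit together at the upper right, and the set-2 start at the lower left.

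Other chromatin genes were set beside these from 11 lists of acetyltransferases, deacetylases, methyltransferases, demethylases, their partners and TFIID subunits, using each gene's strongest assigned peak by mean CPM. Apart from the 10 genes, 45 of 83 listed genes had an H3K18ac peak and 48 an H3K27ac peak. Listed genes beyond the last peak on chromosome X, at 7889771 in H3K18ac and 12935256 in H3K27ac, count as without a peak though they were not read. In H3K18ac these include chd-3, bet-2 and taf-7.1. In H3K18ac 0 rose and 3 fell, where 8.04% of all genes rose and 13.1% fell, and the median log2 ratio was -0.043 against -0.036 over all genes. In H3K27ac 4 rose and 4 fell, where 8.72% and 21.9% of all genes did, and the median was -0.051 against -0.17. Relative to the median of all H3K27ac peaks the split was 7 higher and 1 lower, where 15.2% and 13.5% of all genes were.

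Among the acetyltransferases 6 of 9 had a peak in each mark. In H3K18ac 1 fell, mys-2, a MYST-family enzyme, from 674 to 456 counts, a fold of 0.627 (0.556 to 0.707). At the same place inside mys-2 H3K27ac had 598 and 697 counts, a fold of 1.16 (1.04 to 1.298), so the marks differed there in the same direction as at the second cbp-1 peak. None of the 6 passed 1.5-fold in H3K27ac, and their median log2 ratio was 0.19. Of 12 deacetylases 5 had an H3K18ac peak, all within 1.5-fold, and 4 an H3K27ac peak. Of these sir-2.1, the SIR2-type deacetylase, rose from 873 to 1449 counts, a fold of 1.65 (1.52 to 1.80), in a broad peak of 3069 bp at percentile 7.28 by level per kb. Its H3K18ac peak is 695 bp wide, so the regions differ, and had a fold of 0.718 (0.561 to 0.917). The hda-5 peak fell with few counts (96 to 60, 0.623, 0.444 to 0.869) and was within 1.5-fold relative to the median of all H3K27ac peaks (0.712). All 5 H3K18ac and 7 H3K27ac values of corepressor subunits stayed within 1.5-fold.

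Among the methylation genes, set-16, the MLL-type methyltransferase for lysine 4, rose in H3K27ac from 1959 to 3003 counts, a fold of 1.53 (1.44 to 1.62), with 0.899 (0.842 to 0.960) in H3K18ac. In its list, which holds set-2 too, 7 of 8 measured genes in H3K18ac and 5 of 7 in H3K27ac stayed within 1.5-fold. Of the lysine 27 methyltransferase complex, mes-2, its catalytic subunit, fell in H3K18ac (162 to 107 counts, 0.612, 0.475 to 0.786), and mes-3 rose in H3K27ac (285 to 550 counts, 1.92, 1.66 to 2.23) from percentile 2.00 by level per kb. The lysine 36 methyltransferase gene met-1 fell in H3K27ac from 1913 to 1080 counts, a fold of 0.563 (0.522 to 0.607). In the list of lysine 9 methylation, lin-65 was the only one of 4 past 1.5-fold in H3K27ac, and 0 of 3 were in H3K18ac.

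Among demethylases, amx-1, an amine oxidase of the LSD1 type, fell in both marks, with folds of 0.543 (0.458 to 0.641) in H3K18ac and 0.622 (0.483 to 0.797) in H3K27ac; its H3K27ac value is within 1.5-fold relative to the median of all peaks (log2 ratio -0.49). Of 9 JmjC genes 2 had an H3K18ac peak, both within 1.5-fold, and of 4 with an H3K27ac peak jmjd-3.1 alone fell. The H3K18ac lines end before utx-1 and jmjd-3.1, which are among the 9 and were not read in that mark. Of 13 TFIID and TBP genes with an H3K27ac peak 2 rose and 0 fell, taf-4 and, with few counts (56 to 94), taf-8 being those that rose, with a median log2 ratio of 0.15 and 4 of 13 higher relative to the median of all peaks, where 15.2% of all genes were. In H3K18ac 0 of 12 passed 1.5-fold in either direction, with a median of 0.14. The double bromodomain gene bet-2 fell in H3K27ac from 4972 to 3226 counts, a fold of 0.647 (0.619 to 0.676) that is within 1.5-fold relative to the median of all peaks (0.739).

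**Figure D5:**
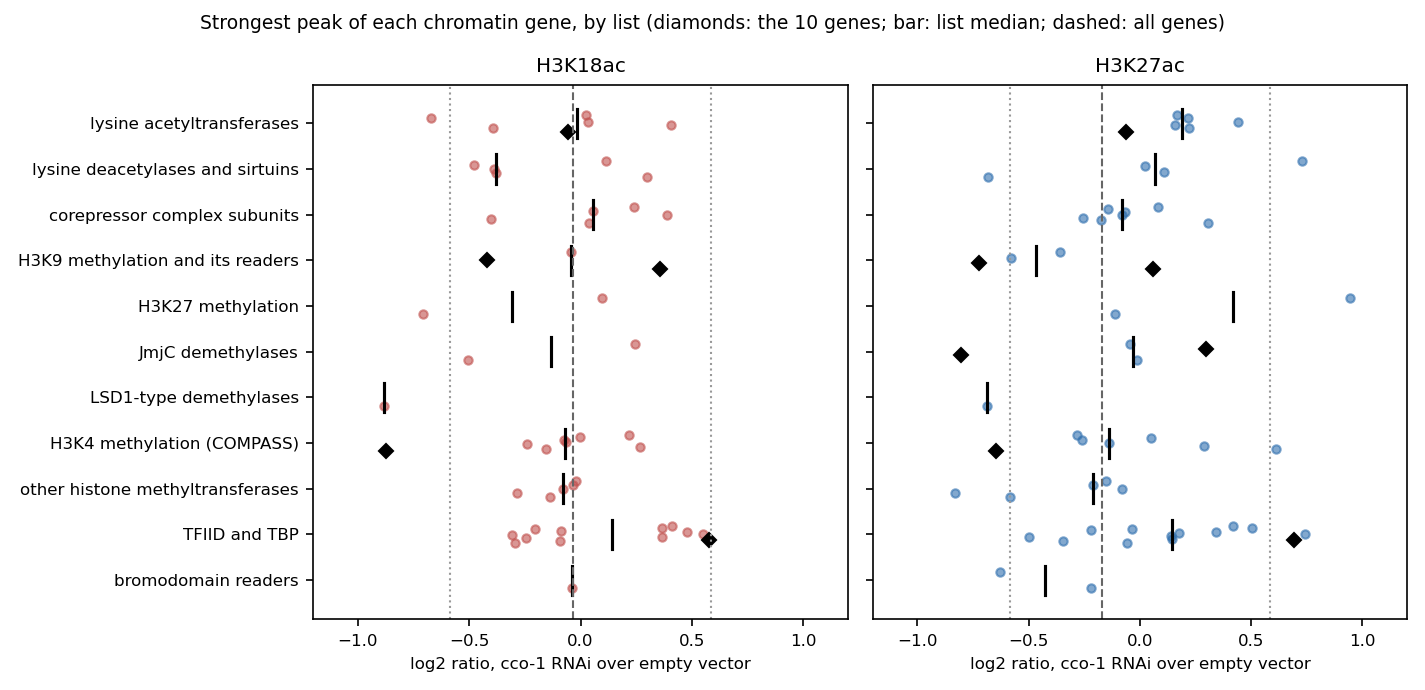
Log2 ratio at the strongest assigned peak of each listed chromatin gene (x axis) by list (y axis); diamonds are members of the 10 genes, bars are list medians, the dashed line is the median of all genes and dotted lines are 1.5-fold. In H3K18ac taf-4 lies furthest right at 0.58, and amx-1 and set-2 furthest left at -0.88 each.

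Markers of 6 tissues were read in the same way, and are to be set against 8.04% of all genes higher and 13.1% lower in H3K18ac, and 8.72% and 21.9% in H3K27ac. Of 8 germline markers 5 had an H3K18ac peak, with 0 past 1.5-fold (202 to 180 CPM summed), and 6 an H3K27ac peak, of which 3 fell (639 to 413 CPM), 2 of them also relative to the median of all peaks. Of 6 hypodermis markers 5 had peaks: 3 fell in H3K18ac (491 to 383 CPM) and 2 in H3K27ac (408 to 293 CPM), 0 of the latter relative to the median. Of 8 sperm markers 0 of 3 passed in H3K18ac (184 to 143 CPM) and 2 of 4 fell in H3K27ac (159 to 128 CPM), 1 of them relative to the median. Of 6 neuron markers 2 of 5 rose in H3K18ac (175 to 241 CPM), and in H3K27ac 1 of 4 rose and 1 fell (209 to 271 CPM). Of 7 intestine markers 0 of 4 passed in H3K18ac (495 to 502 CPM) and 1 of 5 rose in H3K27ac (395 to 554 CPM), act-5 at a fold of 2.19. Of 6 body wall muscle markers 1 of 4 fell in H3K18ac (663 to 521 CPM) and 1 of 5 in H3K27ac (462 to 415 CPM). The tables list peaks only, so a marker without a peak has no value. The markers elt-2 and unc-27 lie on chromosome X beyond the end of the H3K18ac lines and were not read in that mark. The part of such shifts in the changes at set-2, lin-65, jmjd-3.1 and taf-4 was not tested.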

How the data were processed

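The deposited tables, 1 per mark, give each peak's position, its nearest gene and 2 columns of whole numbers named for the feeding conditions, per the file headers. The deposited values were read as raw counts since they are whole and sum to different totals, but a normalized value that the authors rounded would look the same. Builds WBcel235 and ce11 and the tools MACS2 2.1.2, SAMtools 1.4.1, Bowtie2 2.3.5 and FastQC stand in the submitters' processing notes, with no order or role. Read filters, the counting program, the use of inputs and pooling for peak calls were not stated in the sources used.

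Peaks listed for several features (119 and 111 repeated lines) were counted once, and 5 and 3 mitochondrial peaks were left out. Counts were divided by the total in nuclear peaks; the tables hold no further value columns. Exact Clopper-Pearson intervals (95%) of the fold came from the 2 counts with SciPy 1.17.1, and were checked on simulated counts. Counts that are not independent molecules make the true error larger. Each listed gene was read at its strongest assigned peak by mean CPM. Gene bodies came from RefSeq (WBcel235), which matched all 10 genes and gives no strand; strands came from the tables, and without one peaks within 1 kb of either end were taken. Exons and introns were not told apart, and no sequences are shown. TMM scaling used edgeR 4.0.16. The plan assumed that no test between conditions was possible, with 1 library per group.

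The 10 genes and the lists were chosen with earlier results of these data known. Named from the lists were genes past 1.5-fold, up to 4 per list; mys-2, set-16 and sir-2.1 in their other mark are given for comparison. Alternatives were median, TMM and no scaling, a pseudocount, a 2-fold line, stronger peaks only, 1 peak per gene and peaks by position whatever their name; centring on peak strength, and the marks compared at median scaling, were added after the data were seen.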

Additional observations from a re-analysis of the deposited data

How the results depend on the processing

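No paired analysis was possible because each group holds 1 library. For H3K18ac, 1 assigned peak in place of 0 was higher with median scaling, with TMM scaling and with no scaling, the taf-4 start at 1.52, 1.52 and 1.61. The 2 lower peaks became 0 among peaks of at least median level and 1 with the strongest peak per gene, with the peak nearest the start and at 2-fold, and the median log2 ratio of -0.35 became -0.11 over peaks of any name on or near the genes and -0.057 with stronger peaks, the strongest peak or the nearest peak. For H3K27ac, the 2 higher peaks became 1 with the pseudocount of 7.01 CPM, at 2-fold, after centring on peak strength, and with stronger peaks, the strongest or the nearest peak per gene. The 3 lower peaks became 1 with median scaling, TMM scaling, the pseudocount and centring, and 0 at 2-fold, and the median became 0.19 and 0.17 with median and TMM scaling. After centring, the H3K27ac fold at the taf-4 start was 1.49. The falls at set-2 in H3K18ac and upstream of jmjd-3.1 in H3K27ac passed 1.5-fold under each scaling, the pseudocount and centring. No peak past 1.5-fold changed direction. The causes of these shifts were not tested. Depth limits the weak peaks: the far upstream jmjd-3.1 peak has 56 and 114 counts and the met-2 peak 103 and 430.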
